A study of Mus musculus with 9 samples.

Results

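Genes of the p53 response and of the apoptosis machinery were examined as 1 module of 33 genes, chosen by symbol from the 21878 symbols of the deposited count table, and all 33 were found. GENCODE annotates all of them as protein-coding. The data are RNA sequencing of primary hepatocytes of strain C57BL/6, which growth factors and small molecules had turned into liver progenitors, and which were then transduced with a lentivirus, and redifferentiated for 3 weeks. The study has 3 groups of 3 samples, all exposed to copper chloride for 24 hours: ATP7B-/- cells given ATP7B (KO-ATP7B), ATP7B-/- cells given GFP (KO-GFP) and wild-type cells given GFP (WT-GFP). The copper dose is 100 µM in the protocols and the same figure in mM in the treatment field, and the growth protocol names the wild-type vector as ATP7B where the titles and the design text have GFP. Only WT-GFP replicates 1 and 2 are described here. Their count columns were tied to samples by inference from the column number, which also stands in the name and header of each sample's own file. The other 7 of the 9 count columns carry only a number, and reading them in the order of the labels was not accepted as a mapping. The module is therefore described in copper-exposed wild-type cells, and no effect of ATP7B loss, of the ATP7B vector or of copper is given.

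The p53 protein is a transcription factor held at a low level by the ubiquitin ligase Mdm2, which is itself a p53 target. When DNA damage or other stress releases it, p53 raises genes that stop the cell cycle, repair DNA, or trigger mitochondrial apoptosis. In that pathway BH3-only proteins free Bax and Bak1 from guardians such as Bcl-xL (Bcl2l1) and Mcl1, cytochrome c leaves the mitochondria, and Apaf1 activates caspase-9. Hepatocytes are known to depend on Bcl-xL and Mcl1 for survival, and on Bid to link death receptors to the mitochondria. Because p53, Mdm2 and Mcl1 are controlled largely through protein turnover, mRNA levels do not give the levels of these proteins.

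A consensus p53 half-site was looked for in the promoter windows of the module, since p53 binds pairs of such sites. The windows were RefSeq's, on GRCm38.p6, from 250 bases before to 50 bases after each annotated start. At least 1 window was available for 28 of the 33 genes. Trp53inp1, Zmat3, Perp, Tnfrsf10b and Pmaip1 had no window and were not searched. The search took the published 10-base p53 half-site consensus, which is its own reverse complement so that 1 strand covers both. Only exact matches were counted, so sites with a mismatch were missed in the module and in all genes alike. A pair was called where 2 such half-sites lay at most 13 bases apart. A half-site stood in a window of 10 of the 28 genes (35.7%), against 9.55% of all 27025 genes with a window, and by window in 26.8% of 41 against 8.36% of 32851. The 10 genes were Aen, Bax, Ccng1, Cdkn1a, Ei24, Gadd45a, Mdm2, Polk, Sesn1 and Trp53. A pair was found for Cdkn1a alone among the 28 genes, and for 20 of all 27025 genes (0.0740%). A match describes letters and is not evidence of binding, and the genes were put in the module with p53 in mind.

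The sequences below show the Cdkn1a pair and the half-sites of 6 further genes, with the half-sites in capitals and up to 10 flanking bases in lower case, each read 5′ to 3′ on the strand of its gene. The second Cdkn1a line is the pair's downstream half-site with the bases that follow it. Those following bases match the consensus except at the first, so the exact search did not count them. Which of these stretches p53 binds was not tested.
Cdkn1a, pair: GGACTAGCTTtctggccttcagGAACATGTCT
Cdkn1a, downstream half-site: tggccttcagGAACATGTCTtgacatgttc
Mdm2: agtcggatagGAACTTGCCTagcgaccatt
Gadd45a: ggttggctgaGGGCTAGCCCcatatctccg
Ccng1: agacctgcccGGGCAAGCCTtggcactgaa
Bax: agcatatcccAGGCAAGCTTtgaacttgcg
Ei24: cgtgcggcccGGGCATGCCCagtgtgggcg
Trp53: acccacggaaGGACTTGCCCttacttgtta

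The Cdkn1a pair lies at chr17:29090906-29090937 on the plus strand, bases -73 to -42 from the upstream of its annotated starts. Here too counted from the RefSeq start of the window, the half-sites of Gadd45a (chr6:67037438-67037447, minus strand) and Ei24 (chr9:36797335-36797344, minus strand) begin at bases -40 and -10. In GENCODE these genes reach further upstream, to 67037457 for Gadd45a and 36797393 for Ei24, so both half-sites lie within the annotated gene. Those of Trp53 (chr11:69580284-69580293, plus strand), Ccng1 (chr11:40755462-40755471, minus strand), Mdm2 (chr10:117710935-117710944, minus strand) and Bax (chr7:45467090-45467099, minus strand) begin at bases -75, -185, -186 and -201. These positions are those of the capitals.

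The cells carried markers of hepatocytes and of progenitor or biliary cells, and few transcripts of other liver cells. Total counts were 18532457 and 17821682 in replicates 1 and 2. Of 6 hepatocyte markers 5 reached 10 FPKM (counts per kilobase of gene and per 1000000 counts of the library), with summed levels of 3069 and 2909 CPM (counts per 1000000). The same 5 of 6 held for progenitor and biliary markers, at 2797 and 2723 CPM. The markers that fell short, named after their values were seen, were Cps1 (mean of 1.21 FPKM) and Epcam (mean of 2.04 FPKM). Summed levels were 8.53 and 10.1 CPM for 6 macrophage markers, of which 4 had no count. Nearly all of this was Csf1r, with 158 and 179 counts, beside 0 and 1 for Cd5l. The sums were 3.08 and 3.37 CPM for 6 endothelial markers, of which 4 had no count. They were 1.40 and 0.617 CPM for 6 stellate and fibroblast markers, with Pdgfrb at 0, and 0.0540 and 0.112 CPM for 6 lymphocyte markers, with 4 at 0. Where no count was seen, a level of up to 3 counts remains possible (0.162 and 0.168 CPM in the 2 libraries). In a bulk sample, fewer cells with a transcript and less transcript per cell cannot be told apart.

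Every gene of the module was expressed, and none lay below 1 FPKM. Of the 33 genes 27 reached a mean of 10 FPKM (81.8%), against 27.1% of all symbols and 38.1% of the 15545 symbols with a count. The median was 26.9 FPKM, with 27.1 FPKM in replicate 1 and 26.8 FPKM in replicate 2, against 5.66 FPKM for all symbols with a count. The 6 genes below 10 FPKM were Eda2r, Apaf1, Bcl2l11, Sesn1, Fas and Bbc3. From the highest gene, Cdkn1a, to the lowest, Bbc3, the mean deposited level differed 54.4-fold, and the module took 0.358% and 0.365% of all counts. Levels differed little between the libraries: the median coefficient of variation was 3.75%, and Fas (33.2%) and Bbc3 (19.9%) were the 2 genes above 10%.

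**Figure D1:**
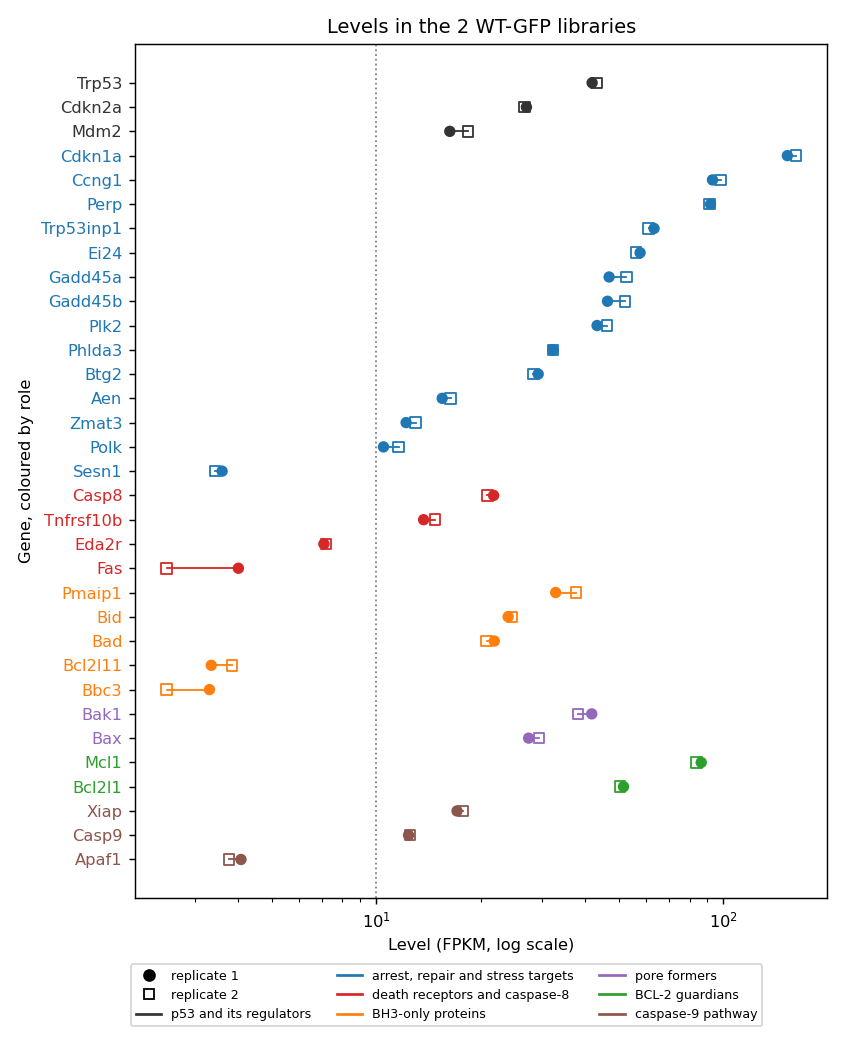
Level of each of the 33 genes in FPKM (log axis) in WT-GFP replicate 1 (filled circles) and replicate 2 (open squares), coloured by role, with a dotted line at 10 FPKM. Cdkn1a stands highest, 6 genes lie left of the line, and Fas and Bbc3 have the widest gaps between the libraries.

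Of p53 and its regulators, Trp53 itself (ENSMUSG00000059552.13, chromosome 11, 69580359 to 69591873, plus strand of GRCm38) was at 41.9 FPKM in replicate 1 and 43.1 FPKM in replicate 2. These came from 1771 and 1750 counts, and a pseudogene, Trp53-ps on chromosome 17, could share reads with it. Mdm2, the ligase that marks p53 for degradation (ENSMUSG00000020184.15, chromosome 10, 117688875 to 117710758, minus strand), was at 16.3 and 18.4 FPKM. Cdkn2a was at 27.1 and 26.8 FPKM. It encodes both the cyclin-dependent kinase inhibitor p16Ink4a and the Mdm2 inhibitor p19Arf, which counts per gene do not separate. Mdm2 stood below Trp53 in both libraries, at 0.389 and 0.428 of its FPKM. With exon lengths from GENCODE M21 in place of the authors' the ranges overlapped, with Mdm2 at 23.5 and 26.5 FPKM and Trp53 at 23.6 and 24.3 FPKM.

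Perp and Aen, which also act in apoptosis, were placed with the cell cycle arrest, repair and stress targets. These targets had a median of 47.0 FPKM over 14 genes, 13 of them at 10 FPKM or more. On the deposited FPKM this was the highest role median after the Bcl-2 guardians (68.0 FPKM), above the pore formers (34.2 FPKM). With GENCODE lengths it was 31.4 FPKM, below the pore formers at 36.7 FPKM. Cdkn1a, which encodes the cyclin-dependent kinase inhibitor p21 (ENSMUSG00000023067.14, chromosome 17, 29090976 to 29100727, plus strand), was at 153 and 162 FPKM, rank 380 of all symbols. It was the 1 gene of the module above 100 FPKM, a level that 2.93% of all symbols reached. Its FPKM was 3.66 and 3.76 times that of Trp53 in the 2 libraries.

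Ccng1, the p53-induced cyclin G1, was at 93.1 and 98.2 FPKM. Perp, a membrane protein of cell junctions that also acts in p53-dependent apoptosis, was at 91.9 and 91.4 FPKM. Trp53inp1, a nuclear protein that binds p53 and acts in autophagy, was at 63.2 and 61.0 FPKM. On the deposited FPKM, these 3 genes and Cdkn1a did not overlap one another in the range of their libraries, Ccng1 exceeding Perp 1.04-fold on average.

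Ei24, a membrane protein of the endoplasmic reticulum that acts in autophagy, was at 57.6 and 56.1 FPKM. The stress proteins Gadd45a and Gadd45b, which act on p38 and JNK signalling and on cell cycle kinases, were at 46.9 and 52.6 FPKM and at 46.4 and 52.1 FPKM, and their ranges overlapped. Plk2, a polo-like kinase of the centriole cycle, was at 43.3 and 46.3 FPKM. Both Gadd45 genes stood above Plk2 within each library.

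Phlda3, an inhibitor of Akt, was at 32.3 FPKM in both libraries, and the antiproliferative gene Btg2 was at 29.3 and 28.4 FPKM. Lower in this role were Aen, a nuclease of apoptosis (15.5 and 16.4 FPKM), and the RNA-binding zinc finger gene Zmat3 (12.6 ± 0.554 FPKM, SD, n = 2). Polk, a DNA polymerase that copies past damaged bases, was at 10.5 and 11.6 FPKM. Sesn1, a sestrin that restrains mTORC1 when leucine is short, was at 3.60 and 3.43 FPKM, the 1 gene of the 14 below 10 FPKM.

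The role of death receptors and caspase-8, in which Eda2r was also placed, had a median of 10.7 FPKM over 4 genes. This was the lowest role median of the module, but on the deposited FPKM that place depends on counting Eda2r. Of the other genes of the role the middle one, Tnfrsf10b, had a mean of 14.3 FPKM, above the caspase-9 pathway median of 12.5 FPKM. Fas, the receptor of Fas ligand (ENSMUSG00000024778.13, chromosome 19, 34290666 to 34327772, plus strand), had 146 counts in replicate 1 and 87 in replicate 2. These gave 7.88 CPM (95% exact interval 6.65 to 9.26) and 4.88 CPM (3.91 to 6.02), or 4.01 and 2.49 FPKM. The intervals of the 2 libraries did not overlap. They cover counting error within each library only. The reads carry no molecular identifiers, so copies of 1 molecule cannot be recognised and the intervals do not allow for them. Tnfrsf10b, the mouse TRAIL receptor, was at 13.7 and 14.8 FPKM, and Eda2r, a receptor of ectodysplasin A2, at 7.07 and 7.16 FPKM. Casp8, the initiator caspase that Fas and the TRAIL receptor engage through Fadd, was the highest of the 4 at 21.8 and 20.9 FPKM. The ligand genes Fasl and Tnfsf10 (TRAIL), named after their values were seen, each had 1 count in replicate 1 and 0 in replicate 2. Tnfrsf1a, a TNF receptor gene outside the module that was also named after its value was seen, had a mean of 68.8 FPKM.

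The 5 BH3-only genes fell into a higher set of 3 and a lower set of 2. Pmaip1, which encodes Noxa (ENSMUSG00000024521.8, chromosome 18, 66458533 to 66465565, plus strand), was the highest at 32.9 and 37.6 FPKM. Bid, which caspase-8 cleaves to reach the mitochondria, was at 24.0 and 24.6 FPKM, and Bad, which growth factor signalling holds inactive by phosphorylation, at 21.9 and 20.8 FPKM. Bcl2l11, which encodes Bim, was at 3.35 and 3.84 FPKM. Bbc3, which encodes Puma (ENSMUSG00000002083.13, chromosome 7, 16308393 to 16318205, plus strand), was at 3.31 and 2.49 FPKM from 225 and 163 counts. On the deposited FPKM, Bbc3 lay below Bcl2l11 in both libraries. With GENCODE lengths their ranges overlapped, at 5.72 and 4.31 FPKM for Bbc3 and 4.72 and 5.40 FPKM for Bcl2l11. Bbc3 and Pmaip1 are both known p53 targets, and Pmaip1 exceeded Bbc3 in both libraries without overlap.

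The pore-forming effectors and the guardians were all well above 10 FPKM. Bak1 was at 41.8 and 38.1 FPKM and Bax at 27.5 and 29.5 FPKM, so that Bax stood at 0.657 and 0.773 of Bak1. With GENCODE lengths this order turned, and Bax was at 1.21 times Bak1. Of the guardians, Mcl1 (ENSMUSG00000038612.16, chromosome 3, 95658788 to 95663176, plus strand) was at 86.4 and 83.8 FPKM. Bcl2l1 (ENSMUSG00000007659.18, chromosome 2, 152780668 to 152831728, minus strand) was at 51.6 and 50.4 FPKM, or 0.597 and 0.601 of Mcl1. Bcl2l1 remained below Mcl1 with GENCODE lengths, at 0.842 of its level. Of the other guardian genes, named after their values were seen, Bcl2l2 (Bcl-w) was at 11.3 and 10.9 FPKM and Bcl2 at 2.23 and 1.97 FPKM. Bcl2l1 is spliced to forms of opposite function, Bcl-xL and Bcl-xS, which counts per gene do not separate.

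In the caspase-9 pathway, the apoptosome scaffold Apaf1 was the lowest at 4.08 and 3.77 FPKM. Casp9, the initiator caspase it activates, was at 12.4 and 12.5 FPKM. Xiap, an inhibitor that binds caspase-9, was at 17.1 and 17.8 FPKM, or 1.37 and 1.43 times Casp9. The ratio was 1.92 with GENCODE lengths. Cycs, the cytochrome c gene, named after its values were seen, was at 42.7 and 44.7 FPKM.

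Between neighbours in the order of mean deposited FPKM, the ranges of the 2 libraries overlapped in 11 of 32 pairs. Thus Bcl2l1, Gadd45a and Gadd45b were not told apart in sequence, nor were Btg2 and Bax, Bad and Casp8, Xiap with Mdm2 and Mdm2 with Aen, or Zmat3 and Casp9. At the lower end, Apaf1, Bcl2l11, Sesn1, Fas and Bbc3 each overlapped the neighbour next in this order. The largest steps between neighbours were from Eda2r to Apaf1 (1.81-fold) and from Cdkn1a to Ccng1 (1.65-fold).

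The gene length used moved more levels than the library did. With exon lengths from GENCODE M21, 8 of the 33 genes came out more than 1.5 times lower and 2 more than 1.5 times higher, whereas 1 gene, Fas, differed by more than 1.5 times between the libraries. Cdkn1a came to 90.4 FPKM and lay below Ccng1 (95.7 FPKM) and Mcl1 (94.6 FPKM). At the lower end Apaf1 (2.85 FPKM), Sesn1 (2.95 FPKM) and Fas (3.09 FPKM) then stood below Bbc3, and the span from the highest to the lowest gene was 33.6-fold. Trp53 came to 24.0 FPKM and Ei24 to 26.8 FPKM, while Bcl2l1 came to 79.7 FPKM and Bbc3 to 5.01 FPKM. Zmat3 (8.95 FPKM), Aen (7.62 FPKM), Polk (8.84 FPKM), Tnfrsf10b (8.31 FPKM) and Casp9 (9.35 FPKM) then lay below 10 FPKM, leaving 22 genes at or above it. The GENCODE length counts every exon base of every annotated transcript of a gene, and the annotation behind the authors' lengths is not known here.

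**Figure D2:**
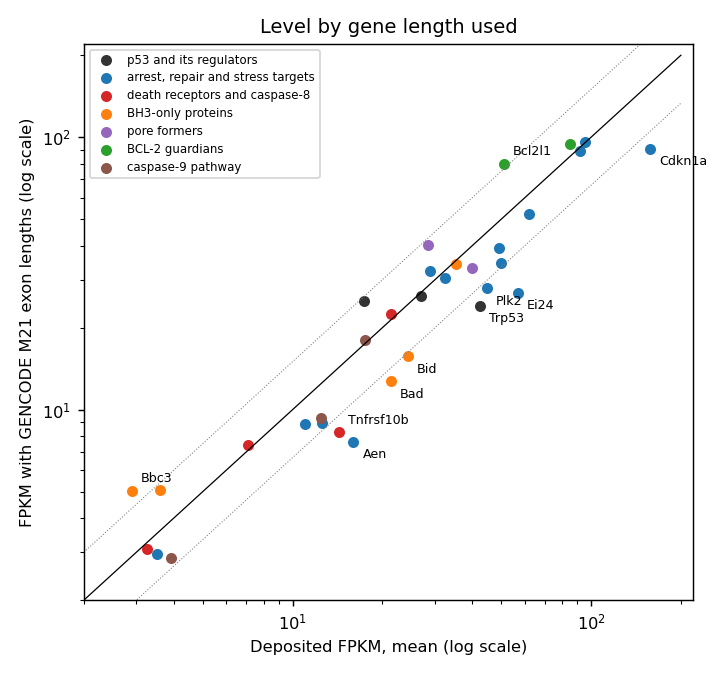
Mean FPKM of each of the 33 genes as deposited (horizontal, log axis) against FPKM with GENCODE M21 exon lengths (vertical, log axis), coloured by role. The solid line marks equal values and the dotted lines a 1.5-fold change; 8 named genes lie below the lower line, among them Cdkn1a, Trp53 and Ei24, and Bcl2l1 and Bbc3 lie above the upper one.

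Exons of 8 of the 33 genes overlap those of another annotated gene, and the strand setting of the counting is not given. The overlap with a gene on the opposite strand was 20.5% of exon bases for Bad (with Gpr137), 19.1% for Gadd45a (with E230016M11Rik), up to 18.2% for Bak1 (with Ggnbp1) and 17.7% for Bid (with Bcl2l13). It was 7.68% for Cdkn1a, 6.66% for Ei24 and 1.81% for Casp9. Bax shared 12.2% of its exon bases with a gene on its own strand, Gm45808. The levels of these genes are uncertain to the extent that reads were shared.

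Other genes of the pathway were set beside the module as 3 lists. Among 18 other p53 regulators the median was 6.08 FPKM, and 6 reached 10 FPKM. Hipk2, a kinase that phosphorylates p53, was the highest at 60.2 and 58.5 FPKM, followed by the deubiquitinase gene Usp7 (23.7 and 24.5 FPKM) and Mdm4, the Mdm2 relative that inhibits p53 (18.0 and 18.7 FPKM). The p53 family genes Trp63 and Trp73 had no count in either library. The 40 other p53 targets had a median of 11.9 FPKM, and 23 reached 10 FPKM. The highest were Ephx1, an epoxide hydrolase (239 and 233 FPKM), and the glutathione peroxidase gene Gpx1 (213 and 211 FPKM), while Rprm and Spata18 had no count. The 36 other apoptosis genes had a median of 9.72 FPKM, 18 of them at 10 FPKM or more, and were led by the mitochondrial channel genes Vdac2 (257 and 245 FPKM) and Vdac1 (156 and 151 FPKM) and by Bnip3, a mitophagy receptor (112 and 101 FPKM).

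**Figure D3:**
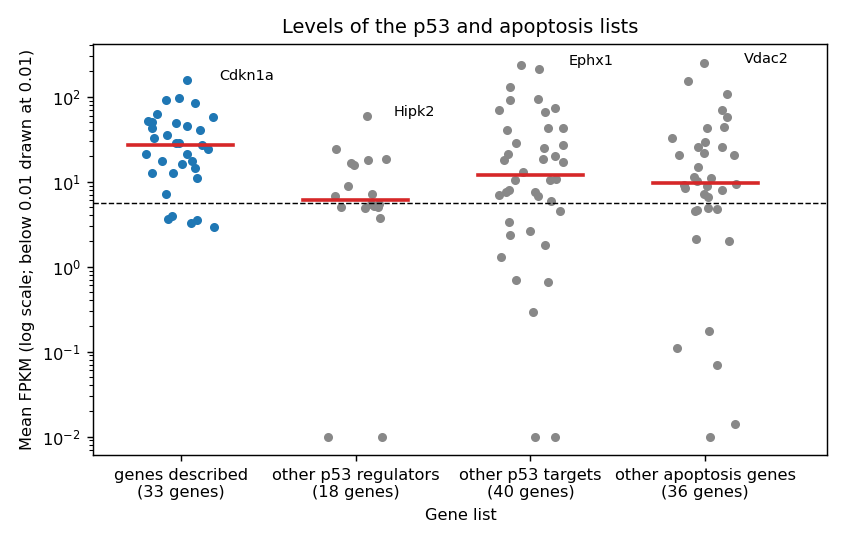
Mean FPKM (log axis) of the 33 genes described and of 3 lists of other pathway genes; points are genes, red bars are list medians and the dashed line is the median of all symbols with a count, 5.66 FPKM. The medians are 26.9, 6.08, 11.9 and 9.72 FPKM from left to right.

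The 2 WT-GFP libraries were compared gene by gene to see which genes of the module varied by more than counting error. Whether the replicates are separate mice or cultures is in no label, and the p-values concern these 2 libraries, whose spread may be technical, and no condition. All 33 genes had the mean of at least 10 counts that the test required. By a two-sided exact binomial test with Benjamini-Hochberg adjustment over all genes, 8 of the 33 differed (24.2%), against 14.8% of all 12302 genes tested. Higher in replicate 2 were 6 of the 33, against 8.38% of all genes, and lower were 2, against 6.38%. The log2 ratio of replicate 2 to replicate 1 was within 0.20 in size for 31 of the 33 genes, and its median size was 0.08, against 0.10 for all genes tested. The test calls smaller ratios where counts are higher, and 20 of the 33 genes averaged above 1000 counts, against 4408 of all 12302. Above that count the median size was 0.07 for the genes of the module and 0.07 for all genes.

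The 2 genes lower in replicate 2 were Fas and Bbc3, which also had the 2 lowest mean counts of the module. The ratio on the log2 scale was -0.69 for Fas, with an adjusted p of 0.00519, and -0.41 for Bbc3, with an adjusted p of 0.0433 (exact binomial test). The call of Bbc3 was lost with no minimum beyond 1 count (adjusted p of 0.0543, same exact test). The 6 higher genes had small ratios. Mdm2, from 2213 and 2404 counts, was higher by 0.18 with an adjusted p of 0.000711 in the same exact test. Pmaip1, from 1619 and 1778 counts, was higher by 0.19 with an adjusted p of 0.00192. Gadd45a and Gadd45b each had 0.17 (adjusted p = 0.0478 and 0.0424, exact binomial test), and lost their calls with no minimum (adjusted p = 0.0593 and 0.0532, same exact test). Cdkn1a and Ccng1 each had 0.08 (adjusted p = 0.0300 and 0.0290, exact binomial test). The ratios of Cdkn1a and Ccng1 were smaller than the SD of 0.11 over the 4408 genes above 1000 counts. Among arrest, repair and stress targets with no call, ratios ran from -0.07 (Sesn1) to 0.14 (Polk), with Phlda3 at 0.00, Perp at -0.01 and Trp53inp1 at -0.05. Polk, Plk2 (0.10) and Zmat3 (0.09) thus had larger ratios than the called Cdkn1a and Ccng1.

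The 8 calls rest on counting error as the only noise. A second test also counted as noise the spread between these libraries over all genes (a coefficient of variation of 5.62%). This test, edgeR's exact test, called 0 of the 33 genes, against 0.642% of all genes. With it 2 of the 33 had an unadjusted p under 0.05, against 5.56% of all genes. The spread was estimated from the same 2 libraries that were tested, so few calls were bound to follow. The 0 therefore does not show that these genes are alike in the libraries. With TMM scaling, the binomial test called 2 higher and 3 lower, against 836 higher and 958 lower of all genes in place of 1031 and 785. In that setting Cdkn1a, Ccng1, Gadd45a and Gadd45b were no longer called and Bak1 was, at -0.15 with an adjusted p of 0.0423.

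**Figure D4:**
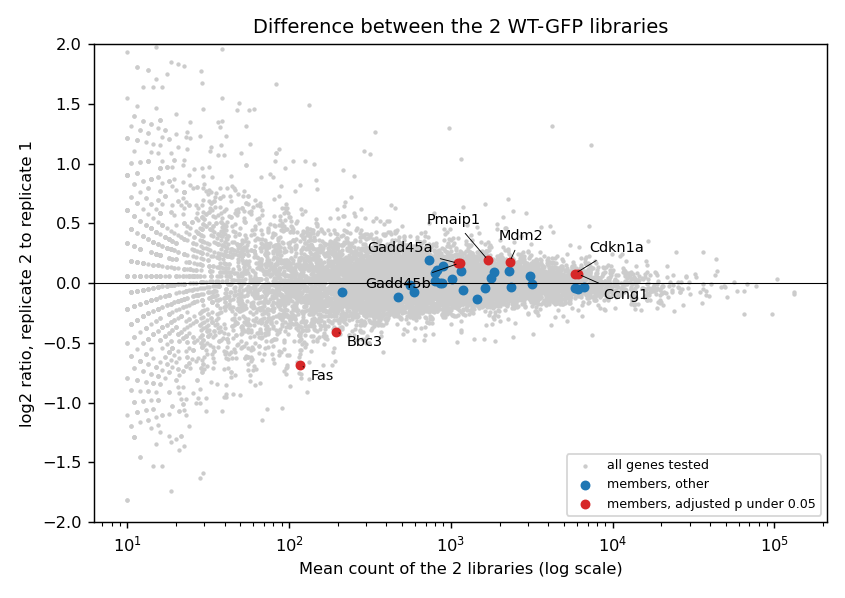
Log2 ratio of replicate 2 to replicate 1 (vertical) against the mean count (horizontal, log axis) for the 12302 genes tested (grey), the 25 genes of the module with no call (blue) and the 8 called by the exact binomial test (red, named). The 33 genes lie within the cloud of genes of like count; 15 genes beyond a ratio of 2 in size are not drawn.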

How the data were processed

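The authors deposited raw counts for each gene symbol as 9 numbered columns, and FPKM values in a file of their own for WT-GFP replicates 1 and 2, per the file headers. Stranded mRNA libraries were made, per the labels' protocols. The submitters' processing notes name the aligner HISAT2 (version 2.2.1.0) and, with no role, mm10 and hg38. For counter, annotation and strand setting no name was found in the labels or headers. The 7 count columns whose number matches no label were not used, so the 3 planned group comparisons could not be run. Gene lengths implied by counts and FPKM in replicate 1 were whole within 0.01 bp for all 14759 symbols with a count there, so the FPKM are the same counts per length and library total.

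CPM intervals are exact Clopper-Pearson at 95%. Counts of replicate 2 against replicate 1 were tested with a two-sided exact binomial test (scipy 1.17.1) in genes averaging 10 counts or more. P-values were adjusted by Benjamini-Hochberg over all these genes at 0.05, and 0.5 was added to counts for ratios. The test was checked on simulated counts with counting error as the only noise, as the test itself assumes. That check cannot show how the test behaves on these libraries, which vary by more. TMM factors (0.995 and 1.00) and an exact test with a common dispersion came from edgeR 4.0.16. Positions, exon lengths and overlaps came from GENCODE M21 on GRCm38, the assembly of mm10, and promoter windows from RefSeq on GRCm38.p6. Of 131 listed symbols of other genes and markers, 130 were in the table. The genes of the module, their roles and the lists were chosen with earlier results of these data known. Named genes are all 33 and, of each other list, the 3 highest and those with no count, except that 1 gene is not reported here; others are marked as chosen after their values were seen.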

Additional observations from a re-analysis of the deposited data

How the results depend on the processing

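The median of the 33 genes was 25.0 FPKM with GENCODE exon lengths, against 26.9 FPKM as deposited, and the number at 10 FPKM or more was 22 against 27. Leaving out either library gave medians of 26.8 to 27.1 FPKM and 27 genes at 10 FPKM. TMM scaling, or requiring a mean of 10 counts, which all 33 genes have, changed neither value. The number of the 33 genes that differed between the libraries was 8 by the exact binomial test, 5 with TMM scaling, 5 with no minimum beyond 1 count (without Bbc3, Gadd45a and Gadd45b), and 0 by edgeR's exact test, which called 79 of all genes against 1816. Without a minimum more genes are adjusted over, TMM scaling moves the median ratio of all genes by -0.01, and edgeR's test adds the spread between libraries to the noise. Ratios kept their sign in all 33 genes under these 3 settings, except that Phlda3 and Casp9, at 0.00 and with no call, came to -0.01 with TMM scaling. Signs could hardly change here. The setting with no minimum keeps the same ratios, and edgeR used the same library totals. TMM scaling shifts every ratio equally, by a small amount. No paired analysis was possible because the 2 usable libraries belong to the same group, WT-GFP. For the same reason the planned DESeq2 fits, filters, replicate terms and leaving out of replicates for the 3 group comparisons were not run. Depth limits Fas and Bbc3 most, at 87 to 225 counts.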
